A study of Mus musculus with 8 samples.

Results

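Periostin, the tenascins, the thrombospondins, SPARC, COMP, fibronectin and dermatopontin are followed here in dermal fibroblasts of old mouse skin after long inhibition of PPARG. Of the 10 listed genes, 9 had at least 1 probe set annotated to that gene alone, giving 12 of the 45141 probe sets on the array; Thbs1 (thrombospondin 1) had none and was not analysed here. The study measured 8 mice with 1 array each. In 4 of them, GW9662, which binds the nuclear receptor PPARG covalently and blocks it, was applied to the back skin at 150 nmol in 300 µl acetone, 3 times per week for 6 months; the other 4 mice received acetone alone, and both groups were 12 months old at the start. Strain and sex are not given in the sources used here. After removal of the subdermis, cells positive for Pdgfra and CD34 and negative for CD45, CD117, CD24, CD31 and EpCam were sorted, and RNA of 5000 cells was amplified over 21 cycles, which can change the relative signal of transcripts.

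Matricellular proteins are secreted into the extracellular matrix, where they regulate how cells attach to it, how fibrils form and how growth factors are held or released, rather than bearing load themselves. Many are abundant in embryonic skin, fall in the adult and return in wounds, and transforming growth factor beta is a known inducer of several of them. Fibronectin differs from the others in being a fibril-forming adhesive scaffold to which collagens, tenascins and thrombospondins bind.

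All values are log2 signals as deposited. A level of one probe set cannot be set against that of another as an amount of RNA, and no detection call says which dim probe sets were above background. In bulk RNA of sorted cells, fewer cells expressing a gene and less RNA per cell cannot be told apart. Among the sort markers, Cd34 stood at 10.72 ± 0.04 (SD, n = 4) after GW9662 and 10.72 ± 0.15 in vehicle, while the brightest named probe set of Pdgfra stood at 4.96 ± 0.17 and 4.86 ± 0.23, near the middle of the array. Ptprc (CD45), Kit (CD117), Cd24a and Epcam had group means between 2.89 and 4.00, and Pecam1 (CD31) 4.99 and 4.87. On the first principal component of all probe sets vehicle 4 lay at 33.7, apart from the other 7 samples at -17.6 to 9.01.

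No matricellular gene passed the test between the groups. Periostin and tenascin C had the largest differences, with log2 values 0.61 and 0.49 higher after GW9662, but both ranged widely among the treated mice and the groups overlapped. Tenascin X, fibronectin and dermatopontin were nearly constant over all 8 mice, as were the brighter SPARC set and the dimmer tenascin C set. Of the 12 probe sets, 5 had a higher mean and 7 a lower one (median log2 difference -0.01), and over all 45037 probe sets tested 47.8% were higher, with a median of -0.0025. In limma, 0 of the 12 had an adjusted p under 0.05 (0% of all probe sets), and 0 had an unadjusted p under 0.05, where 3.55% of all probe sets did. With same-numbered mice as pairs in a block, 2 of the 12 had an unadjusted p under 0.05, Postn and 1 set of Sparc, against 4.85% of all probe sets, and again 0 passed adjustment. In 0 of the 12 did the groups fail to overlap (1.90% of all).

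**Figure D1:**
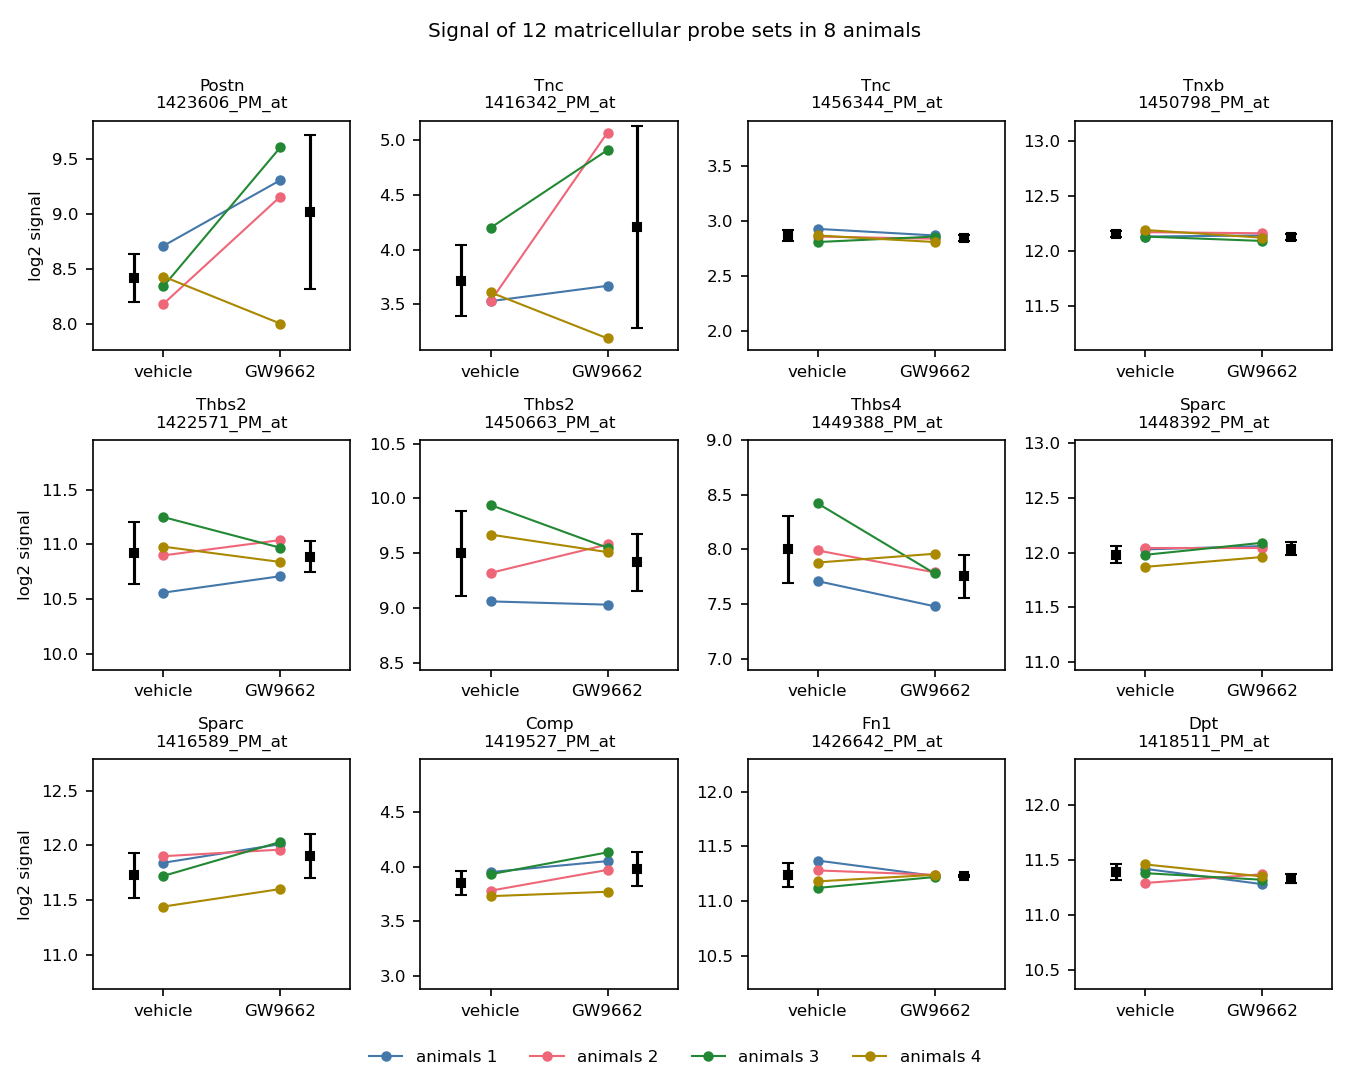
Log2 signal (vertical axes, each spanning the same 2.1 units) of the 12 probe sets in vehicle and GW9662 mice; lines join mice of the same number, and black squares with bars are group means with SD (n = 4). Postn and the brighter Tnc set spread over 1.61 and 1.88 units, while Tnxb stays within 0.1.

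Periostin (Postn) is a secreted protein of remodelling connective tissue that binds collagen I, fibronectin and tenascin C and signals through alpha-v integrins. Its probe set measured 9.31, 9.16, 9.61 and 8.0 in GW9662 mice 1 to 4 and 8.71, 8.18, 8.34 and 8.43 in vehicle mice 1 to 4. GW9662 1, 2 and 3 thus lay above every vehicle mouse, and GW9662 4 lay below all of them. The means were 9.02 ± 0.71 and 8.42 ± 0.22 (SD, n = 4 each), a log2 difference of 0.61 ± 0.29 (SE; 95% interval -0.05 to 1.26), or 1.52-fold. The adjusted p was 0.997 in limma (unadjusted 0.0661), and the exact permutation of the 8 mice gave a two-sided p of 0.143, where 0.0286 is the smallest possible. The pair differences were 0.60, 0.98, 1.27 and -0.43. With the pairs as a block, the interval ran from 0.04 to 1.17 (limma unadjusted p = 0.0392, adjusted 0.975). The difference moved to 0.945 without GW9662 4 (limma unadjusted p = 8.15e-05, adjusted 0.974) and to 0.41 without GW9662 3, so single mice set its size.

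Tenascin C (Tnc) is a many-armed glycoprotein that weakens cell adhesion to fibronectin and is scarce in resting adult dermis. The brighter of its 2 probe sets measured 3.67, 5.07, 4.91 and 3.19 in GW9662 mice 1 to 4 and 3.53, 3.53, 4.20 and 3.61 in the vehicle mice. GW9662 2 and 3 were the highest of all 8, and GW9662 4 was the lowest. The means were 4.21 ± 0.92 and 3.72 ± 0.32 (SD, n = 4), and the log2 difference was 0.49 ± 0.39 (SE; 95% interval -0.37 to 1.35; limma adjusted p = 0.997). It was 0.21 without GW9662 2, 0.22 without both vehicle 4 and GW9662 3, 0.80 without both mice numbered 4, and 0.83 without GW9662 4 alone. The pair differences were 0.14, 1.54, 0.71 and -0.42. Its second probe set lay between 2.81 and 2.93 in all 8 mice, dimmer than all but 1.21% of probe sets, and did not follow the first (Pearson r = -0.17 over the 8 mice, a description only). Tnc signal therefore rests on 1 set, which itself was brighter than only 33.6% of probe sets.

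Tenascin X (Tnxb) is the abundant tenascin of adult dermis, where it binds collagen fibrils, and its loss is known to cause lax skin. Its signal ran from 12.09 to 12.16 after GW9662 and from 12.13 to 12.19 in vehicle. The log2 difference was -0.03 ± 0.05 (SE; 95% interval -0.14 to 0.09). The SD over the 8 mice was 0.03, lower than that of nearly all probe sets, since only 0.591% had a smaller one. Tnxb and the brighter Tnc set therefore stood at opposite ends of the array in spread: that Tnc set had a larger SD than 99.9% of probe sets. The dimmer Tnc set, with an SD of 0.04, lay at the end of Tnxb, since only 1.63% of probe sets had a smaller one. Among the bright probe sets of this array the median SD also fell as the signal rose, and no percentile was drawn for signals as high as that of Tnxb.

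**Figure D2:**
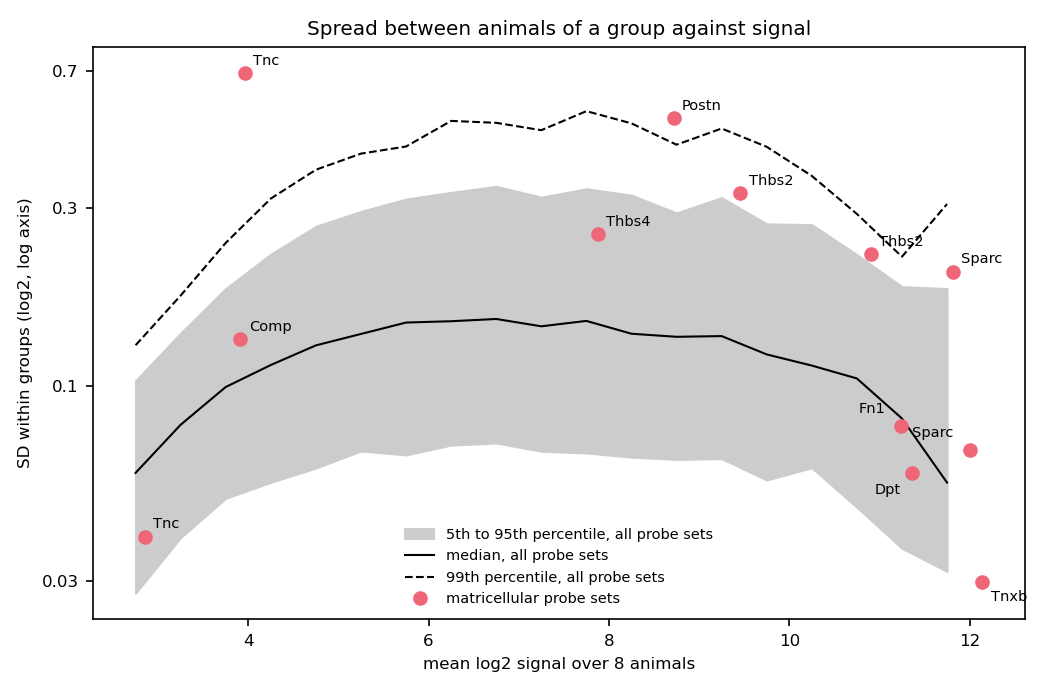
Pooled SD within groups (vertical, log axis, in log2 units) against mean log2 signal (horizontal) for the 12 probe sets, with the median, 5th, 95th and 99th percentiles of all probe sets in steps of 0.5 of signal. The brighter Tnc set at 0.69 and Postn at 0.52 lie above the 99th percentile for their signal, and Tnxb lies lowest at 0.03.

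The promoters of Postn, Tnc and Sparc are shown because these 3 genes were each lowest among the treated mice in GW9662 4. Comp was lowest there too, but no window was found for it. Postn and Tnc have 2 listed starts each, of which 1 is shown, and which start these cells use was not tested. Each window is the run of 250 bases just before an annotated start, read on the gene's strand from RefSeq (build GRCm38.p6). Capitals mark matches, on either strand, to 5 short motifs. These were the core promoter motif TATAAA and the promoter motif CCAAT bound by NF-Y. They also took in the motif GGGCGG of Sp factors and the motif TGANTCA bound by AP-1. The last was the motif AGGTCA, a core element of sites bound by nuclear receptors such as PPARG.
Postn, second listed start, chr3:54360857-54361106, plus strand: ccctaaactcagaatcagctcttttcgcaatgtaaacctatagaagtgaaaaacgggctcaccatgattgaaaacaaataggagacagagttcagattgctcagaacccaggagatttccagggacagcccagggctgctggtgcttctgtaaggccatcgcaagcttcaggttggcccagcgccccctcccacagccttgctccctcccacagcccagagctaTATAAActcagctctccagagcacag
Tnc, first listed start, chr4:64046937-64047186, minus strand: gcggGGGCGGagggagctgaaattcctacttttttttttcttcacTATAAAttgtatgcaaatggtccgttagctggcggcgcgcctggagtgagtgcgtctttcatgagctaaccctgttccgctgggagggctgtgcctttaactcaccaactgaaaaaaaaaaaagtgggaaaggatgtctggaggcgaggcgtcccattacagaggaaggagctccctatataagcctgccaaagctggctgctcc
Sparc, chr11:55420081-55420330, minus strand: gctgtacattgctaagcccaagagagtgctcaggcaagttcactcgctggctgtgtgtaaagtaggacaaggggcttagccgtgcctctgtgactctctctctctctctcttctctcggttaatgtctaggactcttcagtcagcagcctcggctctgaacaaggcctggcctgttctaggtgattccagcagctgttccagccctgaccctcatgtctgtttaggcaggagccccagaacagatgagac
The Postn window held TATAAA starting 26 bases before the start, the Tnc window held TATAAA 205 bases and GGGCGG 246 bases before it, and the Sparc window held none of the 5 motifs. Windows were found for 7 of the 10 genes, 9 windows in all. TATAAA was in 4 of the 9 (2 of them overlapping windows of Tnc) and in 12.4% of 32851 mouse windows of this length. CCAAT was in 1 (33.9% of all), GGGCGG in 3 (32.7%, the 2 Tnc windows and Thbs4) and TGANTCA in 1, that of Tnxb (6.75%). AGGTCA was in 2, that of Tnxb and that of the first listed start of Postn (14.0% of all). These counts describe letters in a window and say nothing of binding.

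Thrombospondin 2 (Thbs2) is an inhibitor of angiogenesis that also affects the shape of collagen fibrils in skin. The brighter of its 2 probe sets measured 10.71, 11.04, 10.97 and 10.84 in GW9662 mice 1 to 4 and 10.56, 10.90, 11.25 and 10.98 in vehicle. The treated values lay inside the vehicle range. The log2 differences were -0.03 ± 0.13 (SE; 95% interval -0.33 to 0.27) for this set and -0.08 ± 0.19 for the other. The sign of both turned when vehicle 3 or GW9662 1 was left out, and that of the brighter set also with array weights and without both mice numbered 4. The 2 sets agreed on the order of the mice (Pearson r = 0.93, n = 8). In both, the mice numbered 1 were the 2 lowest and vehicle 3 was the highest.

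Thrombospondin 4 (Thbs4), a pentameric thrombospondin known from tendon and muscle, was the member with the largest difference toward lower values. It measured 7.48, 7.79, 7.78 and 7.96 after GW9662 and 7.71, 7.99, 8.42 and 7.88 in vehicle. GW9662 1 was the lowest and vehicle 3 the highest, and the groups overlapped. The means were 7.75 ± 0.20 and 8.0 ± 0.30 (SD, n = 4), a log2 difference of -0.25 ± 0.15 (SE; 95% interval -0.58 to 0.09; limma unadjusted p = 0.129, adjusted 0.997). Pair differences were -0.23, -0.20, -0.64 and 0.08. Without vehicle 3 it was -0.11.

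COMP (Comp), the cartilage relative of Thbs4 that binds collagen fibrils, gave a low signal from 3.73 to 4.13, so its level in these cells is uncertain. It measured 4.05, 3.97, 4.13 and 3.77 after GW9662 and 3.95, 3.78, 3.93 and 3.73 in vehicle. The log2 difference was 0.13 ± 0.09 (SE; 95% interval -0.06 to 0.33; limma adjusted p = 0.997). The treated mouse was higher in 4 of 4 pairs, by 0.04 to 0.20. Without both vehicle 4 and GW9662 3 the difference was 0.04.

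SPARC (Sparc), a calcium-binding glycoprotein that binds collagen and aids procollagen processing, gave high signal in every mouse. Its first probe set ran from 11.96 to 12.09 after GW9662 and from 11.87 to 12.04 in vehicle, with a log2 difference of 0.06 ± 0.06 (SE). Its second measured 12.01, 11.96, 12.03 and 11.60 against 11.84, 11.90, 11.72 and 11.44, a difference of 0.18 ± 0.12 (SE; 95% interval -0.10 to 0.45; limma adjusted p = 0.997). The mice numbered 4 were the lowest of their group in both sets. In the second set the treated mouse was higher in 4 of 4 pairs, by 0.06 to 0.31, and with the pairs as a block the interval was 0.02 to 0.33 (limma unadjusted p = 0.0311, adjusted 0.975). Leaving out vehicle 4 brought that set to 0.08, and GW9662 3 as well to 0.04. Both sets ordered the mice nearly alike (Pearson r = 0.98, n = 8). Comp and this Sparc set were the 2 of the 12 probe sets higher in every pair, against 5.40% of all probe sets; 0 of the 12 were lower in every pair, against 5.71%.

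Fibronectin (Fn1), the adhesive scaffold, and dermatopontin (Dpt), a small dermal protein that binds decorin and collagen, had narrow ranges. Fn1 measured 11.23, 11.24, 11.22 and 11.24 after GW9662 and 11.37, 11.28, 11.12 and 11.18 in vehicle. The treated mice fell within 0.02 of each other and inside the vehicle range, and the log2 difference was -0.0050 ± 0.06 (SE; 95% interval -0.15 to 0.14). Its sign turned when the samples were quantile normalised again and without vehicle 1 or vehicle 2. Dpt ran from 11.28 to 11.37 and from 11.29 to 11.46, with a difference of -0.06 ± 0.06 (SE; 95% interval -0.19 to 0.07). For Tnxb and Fn1, differences over 0.2 in either direction lay outside the 95% intervals with and without the pairs as a block, while for Dpt the paired interval reached -0.21. For Postn and Tnc the intervals reached 1.26 and 1.35 without the block and 1.17 and 1.13 with it.

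**Figure D3:**
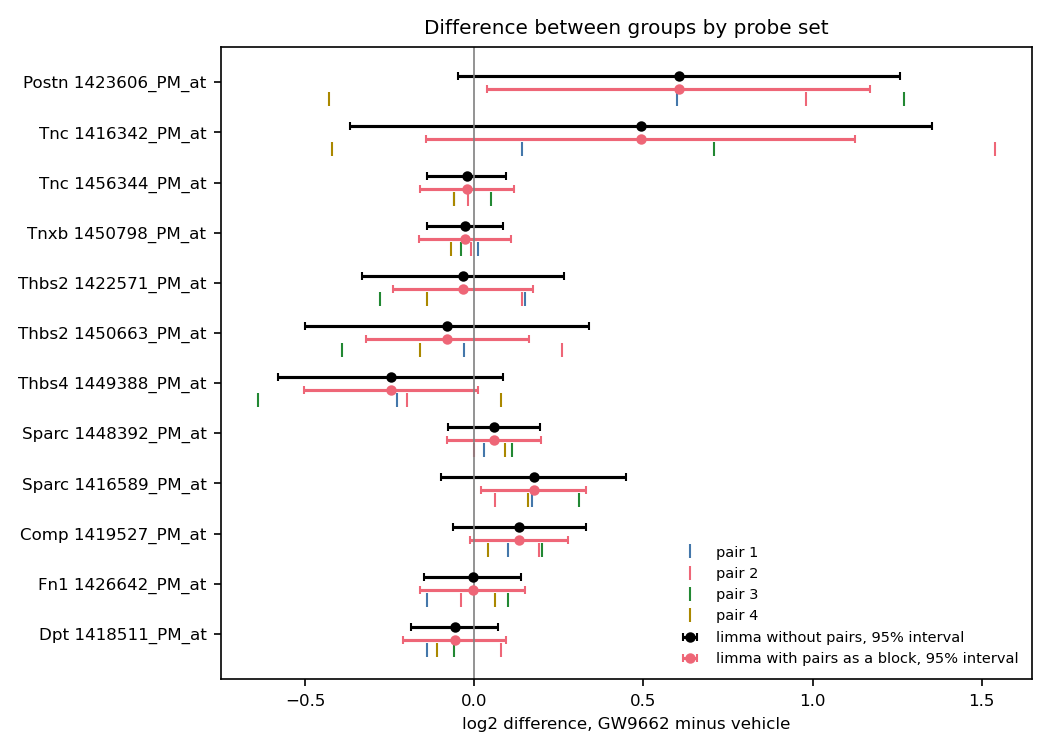
Log2 difference, GW9662 minus vehicle (horizontal), for each of the 12 probe sets: points with 95% intervals from limma without pairs (black) and with same-numbered mice as a block (red), and ticks for the 4 pair differences. Postn at 0.61 and the brighter Tnc set at 0.49 have the widest intervals, and pair 4 lies below 0 in both.

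How the members varied together was asked over the 8 mice with 1 probe set per gene. Of 36 gene pairs, 17 had a positive and 19 a negative Pearson r. In exact permutation tests 5 pairs had an unadjusted p under 0.05 and 0 an adjusted one. Mice were collected in sets, 1 per group on a day, and same-numbered mice were read as these sets. The 8 are therefore not taken as fully independent. Postn and Comp had the highest Pearson value, with r = 0.89 (exact permutation p = 0.0048, adjusted 0.173) and Spearman rho = 0.86 (exact permutation p = 0.0107, adjusted 0.193). It was 0.72 without GW9662 1 and 3, the mice farthest from the Postn median, and 0.86 on deviations from the group means. Within the GW9662 group r was 0.98 and within vehicle 0.52 (n = 4 each). Comp signal was low, from 3.73 to 4.13, so what its correlations say of Comp RNA is uncertain. Sparc and Comp had r = 0.79 (exact permutation p = 0.0157, adjusted 0.189) and the highest Spearman value (rho = 0.90, exact permutation p = 0.0046, adjusted 0.164), and r was 0.57 without the mice numbered 4. Postn and Tnc had r = 0.70 (exact permutation p = 0.0587, adjusted 0.336; rho = 0.71, exact permutation p = 0.0591, adjusted 0.355), and r was 0.80 without GW9662 1 and 3. Within the GW9662 group it was 0.72 and within vehicle -0.23 (n = 4 each). Postn, Tnc, Sparc and Comp thus had their lowest treated value in the same mouse, GW9662 4. Thbs2, Thbs4 and Dpt had theirs in GW9662 1, and Tnxb and Fn1 in GW9662 3. On the first principal component of all probe sets GW9662 4 lay at 8.99, and the other treated mice at -17.6 to -4.48. The share of all probe sets lowest in GW9662 4 was not counted, so the pattern is not shown to be particular to these genes.

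The thrombospondins Thbs2 and Thbs4 ran in a different order of mice, with vehicle 3 highest in both. Their r was 0.75 (exact permutation p = 0.0393, adjusted 0.296; rho = 0.60, exact permutation p = 0.132, adjusted 0.433), and 0.50 without vehicle 1 and vehicle 3. Postn and Thbs4 had r = -0.62 (exact permutation p = 0.0935, adjusted 0.336; rho = -0.79, exact permutation p = 0.0279, adjusted 0.335), and -0.47 without GW9662 1 and 3. Thbs2 and Fn1 had r = -0.85 (exact permutation p = 0.0146, adjusted 0.189; rho = -0.67, exact permutation p = 0.0757, adjusted 0.360), but -0.21 without vehicle 1 and vehicle 3, on which the relation rests; it was -0.97 within vehicle and 0.05 within GW9662 (n = 4 each). Sparc and Dpt had r = -0.72 (exact permutation p = 0.0411, adjusted 0.296; rho = -0.73, exact permutation p = 0.0467, adjusted 0.355), and -0.54 without the mice numbered 4. Without vehicle 4 alone that r was -0.43.

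**Figure D4:**
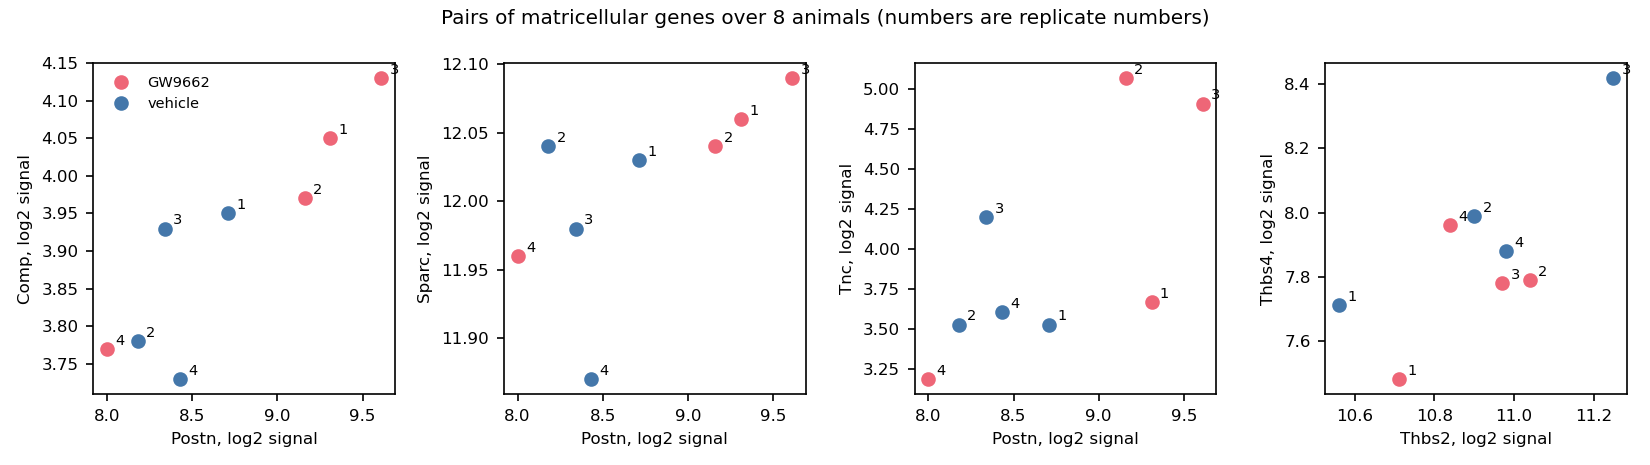
Log2 signal of 4 pairs of matricellular genes in the 8 mice (axes in log2 units; red GW9662, blue vehicle; numbers are replicate numbers). GW9662 4 lies at the low end of Postn at 8.0, apart from the other treated mice at 9.16 to 9.61, and vehicle 3 is highest in both Thbs2 and Thbs4.

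Taking the brightest probe set of each gene, Tnc, Postn and Thbs4 had the largest SD over the 8 mice (the dimmer Thbs2 set, at 0.31, exceeded Thbs4 at 0.27). For each, the 3 genes most alike in pattern were sought among 15973 probe sets at or above the median signal. For Postn they were Nek8 (r = 0.97), Lrrc23 (0.97) and Aqp11 (0.94). For Tnc they were Cttnbp2nl (r = 0.96), Eif4e2 (0.94) and Aspn (0.92), the gene of the matrix proteoglycan asporin. For Thbs4 they were Rbm39 (r = 0.97), Bmp7 (0.96), a bone morphogenetic protein, and Ccdc107 (0.95). Each r is the highest of many over 8 mice and is given with no test.

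Other genes of the same biology also gave no call. Beside the members, 32 of 34 listed other matricellular genes were measured, 18 of them with a higher mean and 14 with a lower one (median log2 difference 0.01), while 47.0% of all 17097 genes were higher. At an unadjusted p under 0.05 there was 1 lower gene (1.81% of all genes) and 0 higher (1.57%). It was Spon2, spondin 2, at -0.45 ± 0.14 (SE; -0.32 as the mean over its sets; limma adjusted p = 0.997). It measured 9.59, 9.86, 9.11 and 9.23 after GW9662 and 9.86, 9.95, 9.89 and 9.88 in vehicle. GW9662 1, 3 and 4 thus lay below every vehicle mouse, and GW9662 2 tied with the lowest of them. Smoc2, a relative of SPARC, stood at 0.28 ± 0.13 (0.15 without GW9662 1), and Fbln7 at 0.57 ± 0.30 (0.36 without GW9662 1).

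Receptors came next. Of 27 measured genes for integrins, syndecans and other receptors of these proteins, 15 were higher and 12 lower (median 0.02), with 1 gene of each direction at an unadjusted p under 0.05. These were Itgav, the alpha-v integrin chain that binds periostin and tenascin C, at 0.23 ± 0.10 (SE; 0.08 as the mean over its sets), and Scarb1 at -0.19 ± 0.07. Itgb1, the beta-1 integrin chain, stood at 0.21 ± 0.10 and was higher in 4 of 4 pairs, but at 0.12 as the mean over its sets and 0.13 without vehicle 4. Of 23 measured genes of collagens, proteoglycans, elastic fibres and the lysyl oxidases that crosslink them, 17 were higher and 6 lower (median 0.10), with 0 at an unadjusted p under 0.05 in limma; Col5a2 stood at 0.31 ± 0.15 (0.47 without GW9662 4), Col14a1 at 0.70 ± 0.36 (0.43 without GW9662 1, 1.052 without GW9662 4) and the lysyl oxidase relative Loxl1 at -0.14 ± 0.07. The mean signal of that list was 9.37, 9.31, 9.39 and 8.93 in GW9662 mice 1 to 4 and 9.03 to 9.19 in vehicle, the order in which Postn also placed GW9662 4 last.

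Of 25 measured genes of enzymes, a collagen chaperone and tensins that process or assemble matrix, 16 were higher and 7 lower (median 0.04), with 0 at an unadjusted p under 0.05 in limma; Adamts12 stood at 0.32 ± 0.16 (0.21 without GW9662 1, 0.50 without GW9662 4, 0.20 as the mean over its sets), Tll1 at 0.19 ± 0.10 (0.11 without vehicle 3) and Mmp2 at 0.14 ± 0.08 (SE). Of 25 measured genes of transforming growth factor beta and contractile signalling, 13 were higher and 9 lower (median 0.0025). Inhba, an activin chain, was the 1 gene at an unadjusted p under 0.05 in limma, and it was higher (1.57% of all genes). It stood at 0.43 ± 0.17 (SE), 0.18 as the mean over its sets and 0.29 without GW9662 1. Tgfb1 stood at -0.28 ± 0.13 and Smad2 at 0.27 ± 0.15 (0.12 without vehicle 4). In limma, the smallest adjusted p in these 5 lists was 0.997.

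Several members are also made by other cells of skin, so marker lists were read beside them as means of log2 signal. The 12 fibroblast markers had means of 10.01 to 10.14 after GW9662 and 9.89 to 10.16 in vehicle. Keratinocyte markers (12 measured) had means of 4.50 to 4.59 and 4.52 to 4.58, immune markers (16) 4.47 to 4.53 and 4.53 to 4.56, endothelial markers (12) 4.46 to 4.64 and 4.40 to 4.73, and pericyte and smooth muscle markers (9) 4.76 to 4.91 and 4.84 to 4.98. Schwann cell and melanocyte markers (9) had 4.98 to 5.14 and 4.96 to 5.14, adipocyte markers (7) 5.10 to 5.19 and 5.12 to 5.20, and muscle fibre markers (9) 4.21 to 4.24 and 4.21 to 4.29. Apart from the fibroblast list, these means lay between 4.21 and 5.20, around the array's median of 4.65. Single genes in them were brighter over the 8 mice, such as Kcnj8 (pericyte list) at 7.86, Cebpa (adipocyte list) at 8.39, Mitf (melanocyte list) at 8.28 and Trp63 (keratinocyte list) at 6.51. A mean near the median therefore does not show that other cells were absent. Dermal papilla and sheath markers (9) had 4.25 to 4.51 and 4.20 to 4.40, and tendon and cartilage genes (11) 4.62 to 4.84 and 4.64 to 4.76. In these last 2 lists GW9662 3 was the highest and GW9662 4 the lowest of the treated mice, as in Postn and Comp. The lists of other matricellular genes, receptors, collagen and proteoglycan partners, and matrix enzymes had that order too. It was therefore not particular to these 2 lists. Vehicle 4 was the lowest vehicle mouse in the papilla list (4.20) and the highest in the tendon list (4.76). The part of these lists in the differences was not tested.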

How the data were processed

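Expression was measured by array in sorted dermal fibroblasts of 8 mice, 4 per group. The deposited values are log2 signals with 2 decimals; RMA from the affy package is named, with no version, in the submitters' processing notes, and the base of the logarithm was read from their range of 2.44 to 12.96. RMA equalises the arrays, so a shift shared by all genes would be removed; sample medians were 4.63 to 4.69. Gene names came from the platform annotation, updated by gene identifier with a RefSeq table (GRCm38.p6). Of 45141 probe sets, 28898 had 1 gene, 551 had several and 15692 had none here, among them 104 controls, which were left out of the tests.

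GW9662 minus vehicle was tested in R 4.3.3 by limma 3.58.1 (lmFit, eBayes, no covariate) over 45037 probe sets, with Benjamini-Hochberg adjustment, a threshold of 0.05 and two-sided tests. Gene lists used the brightest probe set of each of 17097 genes. Arrays are limited in precision by the number of mice, and no detection calls were used. The procedure was tested on simulated data. The members and the 15 gene lists were chosen with earlier results of these data known. Named genes were all probe sets of the members, the sort markers, the 3 genes of smallest p in each list (named for markers only where described) and, for the 3 most variable members, the 3 most alike genes.

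Per the design text, mice were collected in sets, 1 per group on a day. Deviations from group means correlated between same-numbered mice at 0.218, 0.157, 0.108 and 0.147, so the numbers were read as pairs; vehicle 2, however, correlated slightly more with GW9662 1 (0.165). Nothing says whether mice shared a litter or cage. No 2 samples shared over 3.04% of their values. Alternatives were the replicate block, other variance models, brighter probe sets, renewed normalisation or centring, array weights, gene-level values, control probe sets kept, named probe sets alone, and samples left out.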

Additional observations from a re-analysis of the deposited data

Results flagged for a closer look

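In 24 groups of 4 samples (12 probe sets, both treatments), 3 had a sample whose gap to its nearest neighbour exceeded the share of the range that Dixon's test allows for 4 values at 95%; chance flags about 5% of groups. In the brighter Tnc set, vehicle 3 stood at 4.2, and the next vehicle mouse at 3.61. In the dimmer Thbs2 set, GW9662 1 stood at 9.03, below the next treated mouse at 9.51. In the second Sparc set, GW9662 4 stood at 11.6, below the next at 11.96. GW9662 4 was not marked by this test in Postn, where it stood at 8.0 and the next treated mouse at 9.16.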

How the results depend on the processing

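Under each of the 22 refits run, 0 probe sets of the whole array had an adjusted p under 0.05, and under 0.1 there were 0 in the original fit; the smallest adjusted p of a member in any refit was 0.435. The number of member probe sets with an unadjusted p under 0.05, 0 in the original fit, was 1 with array weights (Postn; 4.12% of all probe sets), 2 with the replicate block (Postn and Sparc; 4.85% of all probe sets), 2 without both mice numbered 4 (5.04% of all), 3 without them and with the replicate block (Postn, Tnc and Thbs4; 5.85%), and 0 to 4 with 1 mouse left out. The 4 were Postn, Tnc, Sparc and Comp without GW9662 4 (5.03% of all probe sets), and without vehicle 1 it was Thbs4 alone (3.69% of all). Signs turned in Thbs2 and Fn1 alone among members. The brighter Thbs2 set was at 0.0126 with array weights, 0.0033 without both mice numbered 4 with or without the block, 0.0275 without GW9662 1 and 0.0767 without vehicle 3 (-0.1533 to 0.0767 with 1 mouse left out). The dimmer set was at 0.0492 without GW9662 1 and 0.0675 without vehicle 3 (-0.2258 to 0.0675). Fn1 was at 0.0078 when quantile normalised again, 0.0392 without vehicle 1 and 0.0092 without vehicle 2 (-0.0442 to 0.0392). The cause of these turns was not tested. The block turned no sign and ended or made no adjusted call.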

Other observations

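The list of tendon and cartilage genes covers a lineage in which Comp, Thbs4 and Tnc are also known to be made. Tnmd and Matn3 were read from it because they had its smallest unadjusted p in limma, so they were picked by outcome. Prg4, next by p, stood at 0.20 ± 0.16 (SE). Tnmd, tenomodulin, is a membrane protein known from tendon and ligament. It measured 8.80, 8.75, 8.82 and 7.77 in GW9662 mice 1 to 4 and 8.06, 7.98, 8.33 and 7.35 in vehicle mice 1 to 4. The treated mouse was higher in 4 of 4 pairs, with a log2 difference of 0.61 ± 0.26 (SE; limma unadjusted p = 0.0406, adjusted 0.997), which was 0.41 once vehicle 4 was left out and 0.32 with GW9662 3 left out too. As in Postn, GW9662 4 was the lowest treated mouse. Matn3, a cartilage matrilin of low signal, stood at 3.82 to 3.98 after GW9662 and 4.00 to 4.11 in vehicle, without overlap (1.90% of all probe sets), with a difference of -0.15 ± 0.06 (SE; -0.10 as the mean over its sets; limma adjusted p = 0.997). Of the 11 measured genes of that list, 6 were higher and 5 lower by any amount.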
